A study of Arabidopsis thaliana with 24 samples.

Results

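The response of wild-type Arabidopsis thaliana seedlings to 2,6-dimethoxy-1,4-benzoquinone (DMBQ) was measured in 8 RNA sequencing libraries of a series of 24. They are the 4 libraries of DMBQ-treated wild type (WT DMBQ) and the 4 libraries of mock-treated wild type (WT mock) of 1 count table, chosen by their labels and compared with each other alone, and the other 16 libraries come from the mutants card1-1 and card1-2. Both groups were Col-0 seedlings that expressed aequorin, a calcium-reporting photoprotein, and the promoter driving it is not given in the sources used here. They had been grown in liquid medium, and at 7 days old WT DMBQ received 5 µM DMBQ for 10 min, while WT mock received the solvent DMSO alone at equal volume for 10 min. Whether replicates came from separate cultures, and how many seedlings each held, is not stated in the labels, and the p-values therefore describe the spread of these libraries, part of it perhaps technical. All 33602 gene rows of the table were used, and 16454 genes had enough counts to be tested.

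DMBQ is a quinone related to the phenolic building blocks of lignin, and root parasitic plants sense such quinones as signals of a host. In Arabidopsis, which is not parasitic, quinones are perceived through CARD1, a leucine-rich repeat receptor kinase, and trigger a rise of calcium in the cytosol. Calcium-binding sensors and calcium-dependent kinases relay such rises, together with mitogen-activated protein (MAP) kinases, to WRKY, ERF, MYB and zinc finger transcription factors, many of whose own transcripts accumulate within minutes of a stimulus.

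Gene counts ran from 2453832 to 3567209 in the WT DMBQ libraries and from 3058233 to 6845450 in the WT mock libraries. Alignments that were not unique made up 33.4 ± 5.65% of all counted alignment records in WT DMBQ and 24.7 ± 3.99% in WT mock (SD, n = 4 each), and every WT DMBQ library (29.7% to 41.8%) lay above every WT mock library (21.3% to 29.0%). The difference of 8.71 percentage points had p = 0.0286 in a two-sided exact permutation test, the smallest value that 4 against 4 allows. WT DMBQ replicate 2 had the 41.8%, and without it the difference was 5.91 points (exact permutation p = 0.0571). Which records were not unique cannot be read from the table, and the part of this share in the gene-level results was measured only by a fit with the share as a covariate. As a check of the labelled tissue, all 18 shoot marker genes and 7 of 9 root marker genes were expressed highly enough to be tested, and none of 11 embryo markers was. Photosynthesis genes were abundant in both groups, RBCS1A, a small subunit of Rubisco, at 6319 to 7641 normalised counts per 1e6 counts (CPM) in WT DMBQ and 5315 to 7125 CPM in WT mock.

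Within 10 min of DMBQ, 316 genes rose and 33 fell, which is 2.12% of the genes tested in either direction (1.92% higher and 0.201% lower). Calls were made at an adjusted p under 0.05 in edgeR's quasi-likelihood test with Benjamini-Hochberg adjustment. The response was one-sided, since 90.5% of the called genes were higher. It was also large, since 29 genes rose at least 8-fold, 61 rose 4-fold to 8-fold, 132 rose 2-fold to 4-fold and 94 rose less than 2-fold, whereas only 2 of the 33 genes that fell did so by at least 2-fold. The median log2 fold change was 1.37 over the genes that rose, -0.65 over those that fell and -0.004 over all genes tested. In 306 of the 316 genes that rose, every WT DMBQ library lay above every WT mock library, a separation seen in 4.36% of all genes tested. In 31 of the 33 that fell, every WT DMBQ library lay below every WT mock library, against 2.58% of all genes tested. In WT mock, genes that rose had a median of 17.8 CPM, near the 20.3 CPM of all genes tested, against 87.3 CPM over the genes that fell. Of the genes that rose, 66 averaged less than 5 CPM there and 27 more than 100 CPM. The same counts were not taken over all genes tested. In whole seedlings, a change in the number of cells of a type and a change in RNA per cell cannot be told apart.

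**Figure D1:**
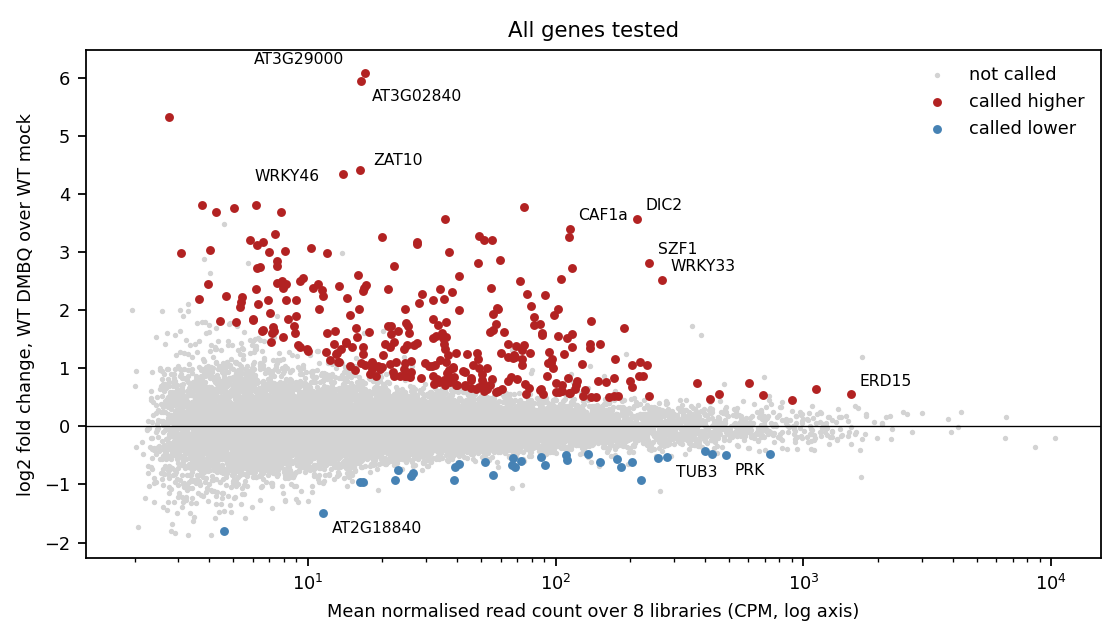
Each point is 1 of the 16454 genes tested, with its mean normalised read count over the 8 libraries (CPM, log axis) against its log2 fold change, WT DMBQ over WT mock. Genes called higher (red, 316) reach a log2 fold change of 6.08 at low to middle levels, and genes called lower (blue, 33) stay close to the cloud of genes not called (grey).

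The count of genes that rose depended on which libraries shared the estimate of the spread. Fitting all 24 libraries of the series gave 180 genes higher and 2 lower, of which 172 and 2 were among the 316 and 33. With the not-unique share as a covariate, which the design largely confounds with DMBQ, 220 genes were higher and 7 lower, of which 197 and 2 were shared. Leaving out 1 library at a time gave 263 to 312 genes higher. Against the 33 genes that fell, the count was 11 without WT DMBQ replicate 2, 16 without WT DMBQ replicate 3, 16 without WT mock replicate 1, 21 without WT mock replicate 2 and 14 without WT mock replicate 3, but 57 with no filter on low counts. Of the 316 genes that rose, 152 kept their call in all 18 alternative settings that gave a value, and none of the 33 that fell did.

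The genes that rose were called from these same 8 libraries. Their values describe each library and do not test whether replicates agree. Over the genes that rose, the median difference of log2(CPM + 0.5) from the WT mock mean lay between 1.25 and 1.52 in the 4 WT DMBQ libraries and between -0.12 and 0.09 in the 4 WT mock libraries. WT DMBQ replicate 3 held the highest value of 133 of these genes, replicate 1 of 82, replicate 2 of 57 and replicate 4 of 44.

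The largest rises were those of transcripts barely present in WT mock. AT3G29000, an EF-hand calcium-binding protein on chromosome 3 with a single exon, counted 27.2, 23.6, 51.0 and 31.7 CPM in WT DMBQ and 0.995, 0.498, 0 and 0.645 CPM in WT mock. It rose by a log2 fold change of 6.08 (SE 0.45; edgeR adjusted p = 1.72e-09). In all, 410 reads were counted in the WT DMBQ libraries and only 9 in the WT mock libraries, so the size of this fold change rests on few reads. AT3G02840, which RefSeq describes as an ARM repeat protein, counted 35.9, 37.8, 25.5 and 30.2 CPM in WT DMBQ and 0, 1.33, 0 and 0.645 CPM in WT mock, with a log2 fold change of 5.94 (SE 0.48; edgeR adjusted p = 3.85e-08). It overlaps the genes AT3G01165 and AT3G02850 on the other strand, and without the strand setting of the counting, which is not given in the sources used here, their reads cannot be told apart.

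Transcription factors followed. ZAT10, a C2H2 zinc finger protein of drought, salt and oxidative stress, counted 27.5, 33.2, 40.7 and 23.9 CPM in WT DMBQ and 0.746, 2.32, 1.90 and 0 CPM in WT mock (4.42, SE 0.39, on the log2 scale; edgeR adjusted p = 4.07e-08). WRKY46 counted 26.9, 16.8, 42.8 and 19.4 CPM in WT DMBQ and 1.99, 0.664, 1.31 and 1.29 CPM in WT mock (4.34, SE 0.39; edgeR adjusted p = 1.47e-08). In both genes the lowest WT DMBQ library stood many times above the highest WT mock library. A further 4 of the leading genes are named by code. AT3G10930 (3.82) is an uncharacterised protein that was listed with the stress peptides, and AT4G29780 (3.77) is described as a nuclease. AT1G77640 (3.75) is described as an integrase-type DNA-binding protein, and AT1G66090 (3.69) is a TIR-NBS disease resistance protein. AT4G29780 was the more abundant of these, with 113, 155, 159 and 128 CPM in WT DMBQ and 8.70, 14.6, 8.03 and 8.71 CPM in WT mock. The 15 genes that rose most under the naming rule also held WRKY40 (3.57), the mitochondrial carrier DIC2 (3.58), the deadenylase CAF1a (3.40), MYB15 (3.31), ERF105 (3.28), ERF104 (3.26) and ZAT12 (3.26). Of the 15, only WRKY40 lost its call in any alternative setting, with an edgeR adjusted p of 0.0567 without WT mock replicate 3, against 0.00836 with all 8 libraries.

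**Figure D2:**
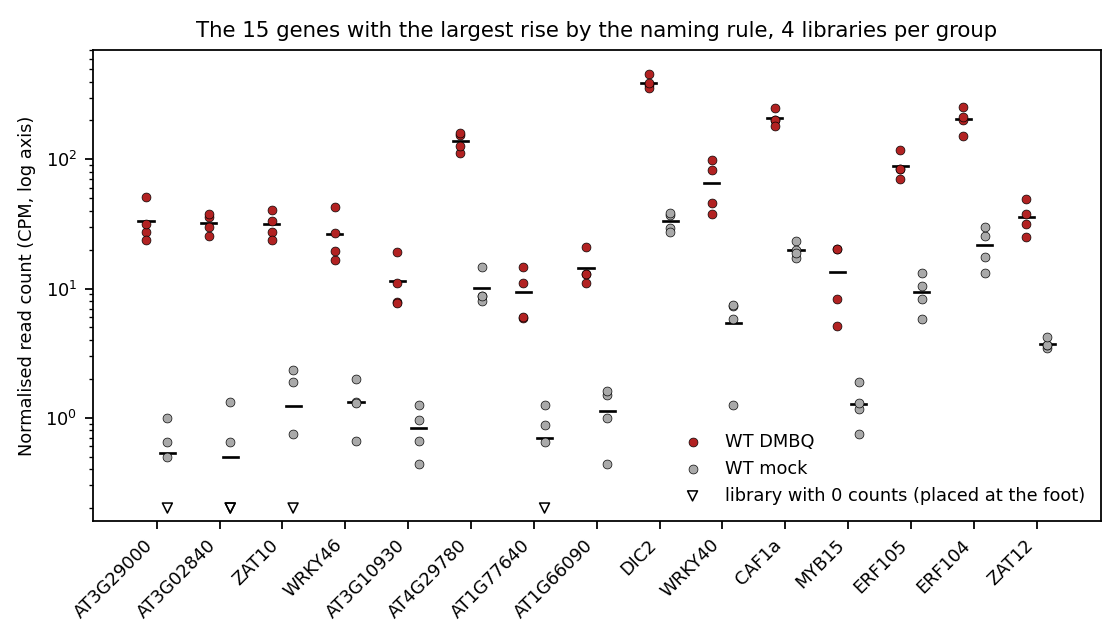
Normalised read counts (CPM, log axis) of the 15 genes that rose most among called genes that averaged 5 CPM or more and whose groups do not overlap, 4 WT DMBQ libraries (red) and 4 WT mock libraries (grey) per gene, with the group mean as a bar. Open triangles at the foot mark WT mock libraries without a single count, and in every gene the groups are separate.

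The sequence just upstream of these genes was read for short elements known from stress-responsive promoters in Arabidopsis: CGCGTT, the rapid stress response element, TTGACC and TTGACT, the W-boxes that WRKY factors bind, and GCCGCC, the GCC-box that ERF factors bind. Shown are the 250 bases before the annotated start of the 4 highest-ranked risers with at least 2 of these elements between 250 bases before and 50 bases after the start, and of the gene that fell most, from RefSeq TAIR10.1. Each is printed 5′ to 3′ on the strand of its gene, in lower case with the elements found before the start in capitals.
ZAT10: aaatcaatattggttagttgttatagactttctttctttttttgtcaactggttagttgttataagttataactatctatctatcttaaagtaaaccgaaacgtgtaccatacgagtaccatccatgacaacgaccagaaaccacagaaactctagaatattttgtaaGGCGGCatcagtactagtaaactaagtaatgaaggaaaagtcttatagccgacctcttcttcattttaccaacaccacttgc
AT4G29780: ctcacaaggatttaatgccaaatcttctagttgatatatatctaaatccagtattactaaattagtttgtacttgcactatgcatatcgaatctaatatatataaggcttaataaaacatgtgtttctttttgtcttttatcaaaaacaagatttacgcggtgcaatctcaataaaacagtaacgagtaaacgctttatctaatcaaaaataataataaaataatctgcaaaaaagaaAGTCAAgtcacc
AT1G66090: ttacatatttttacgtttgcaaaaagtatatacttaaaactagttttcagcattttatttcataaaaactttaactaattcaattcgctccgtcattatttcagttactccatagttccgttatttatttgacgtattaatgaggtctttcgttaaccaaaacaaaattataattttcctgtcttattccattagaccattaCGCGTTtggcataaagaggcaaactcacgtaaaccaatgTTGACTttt
DIC2: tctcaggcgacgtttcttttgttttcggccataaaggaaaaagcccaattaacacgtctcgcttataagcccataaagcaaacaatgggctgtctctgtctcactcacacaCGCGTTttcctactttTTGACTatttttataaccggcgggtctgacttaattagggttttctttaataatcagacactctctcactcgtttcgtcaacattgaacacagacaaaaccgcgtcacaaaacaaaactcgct
AT2G18840: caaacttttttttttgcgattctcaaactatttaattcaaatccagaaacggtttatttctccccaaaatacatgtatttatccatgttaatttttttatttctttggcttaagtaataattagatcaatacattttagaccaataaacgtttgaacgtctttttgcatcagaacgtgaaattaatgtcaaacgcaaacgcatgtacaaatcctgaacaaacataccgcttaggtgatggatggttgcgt
The ZAT10 window (chr1:9649324-9649573, minus strand) holds GCCGCC in reverse, starting 82 bases before the start, and its other elements lie past the start. In AT4G29780 (chr4:14579313-14579562, plus strand) TTGACT in reverse starts 12 bases before the start, and CGCGTT lies past it. AT1G66090 (chr1:24601783-24602032, plus strand) has CGCGTT 48 bases and TTGACT 9 bases before the start. DIC2 (chr4:12686209-12686458, plus strand) has CGCGTT 139 bases and TTGACT 123 bases before it. The window of AT2G18840 (chr2:8157856-8158105, plus strand) holds none of them.

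Over all genes with such a 300-base window, read on both strands, CGCGTT was present in 15% of the 314 genes that rose, 9.09% of the 33 that fell and 3.76% of the 16365 tested. Among the 221 genes that rose at least 2-fold it was present in 15.8%. A W-box of either form was in 47.8% of the genes that rose, 27.3% of those that fell and 32.5% of those tested, with TTGACC in 23.9%, 21.2% and 14.3% and TTGACT in 32.2%, 9.09% and 21.8% of the same 3 groups. GCCGCC was in 5.10% of the genes that rose, in 0 of those that fell and in 2.71% of those tested. The drought element ACCGAC and the G-box CACGTG were as common among the genes that rose (5.41% and 9.55%) as among all tested (6.39% and 8.88%), within 1 percentage point. These shares describe letters in a window and were not tested.

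CARD1 itself (AT5G49760, chr5:20216332-20221382, plus strand, 19 exons in the annotation) was counted at 88.6, 95.8, 79.7 and 79.8 CPM in WT DMBQ and 80.1, 72.2, 66.6 and 75.2 CPM in WT mock. The groups overlapped slightly, at 79.7 CPM in the lowest WT DMBQ library and 80.1 CPM in the highest WT mock library, and the log2 fold change of 0.23 (SE 0.14) did not pass the test (edgeR adjusted p = 0.610). None of the 3 tested genes of its leucine-rich repeat clade list, CARD1 included, passed. Their log2 fold changes ran from -1.1 to 0.23, with a median of -0.05. Over all 16454 genes tested, 8136 had a log2 fold change above 0. Among 15 tested immune receptors and receptor-like kinases, 3 rose, none fell, and all 15 had a log2 fold change above 0 (median 0.30). The first was SOBIR1, the adaptor kinase of receptor-like proteins that detect microbes. It counted 159, 108, 118 and 148 CPM in WT DMBQ and 33.3, 34.3, 38.3 and 52.3 CPM in WT mock and rose by 1.76 on the log2 scale (SE 0.17; edgeR adjusted p = 3.85e-08). RIPK, a cytoplasmic kinase that phosphorylates the immune regulator RIN4, rose by 1.62 (SE 0.24; edgeR adjusted p = 5.80e-05), and LYK5, a chitin receptor, by 1.66. The call of LYK5, a gene at 6.25 to 13.4 CPM in WT DMBQ and 1.66 to 4.97 CPM in WT mock, was lost in 8 of 18 alternatives, among them those without WT DMBQ replicates 1, 3 or 4 and those without WT mock replicates 1, 2 or 4 (highest adjusted p 0.148). The co-receptor BAK1 (0.10) and the cell wall sensor FER (0.29) were abundant and did not pass.

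Calcium sensors had the highest share of tested members that rose among the 30 gene lists, with ERF and DREB factors close (11 of 16). The lists were written with earlier results of these data known, so this order is a description. It also depends on the filter on counts, which a gene could pass through the WT DMBQ libraries alone. AT3G29000, barely present in WT mock, was tested in this way, while listed members low in both groups were left out. Of the 16 calcium sensors and touch genes listed, 11 had enough counts to be tested. Of 11 tested calcium sensors and touch genes, 8 rose, none fell, and the median log2 fold change was 1.69. CML24, the touch-induced calmodulin-like protein TCH2, was counted at 303, 307, 294 and 252 CPM in WT DMBQ and 103, 84.1, 81.6 and 90.4 CPM in WT mock. It rose by 1.69 (SE 0.13; edgeR adjusted p = 7.97e-10), and its 4 WT DMBQ libraries spanned 252 to 307 CPM. CML12, known as TCH3, counted 143, 211, 221 and 223 CPM in WT DMBQ and 67.9, 49.9, 75.9 and 107 CPM in WT mock (1.42, SE 0.21; edgeR adjusted p = 7.95e-04). WT DMBQ replicate 1 was the lowest of its treated libraries and still above all WT mock libraries. PBP1, a calcium-binding partner of the kinase PINOID, rose by 2.46, the EF-hand protein AT5G39670 by 2.42 and CML38 by 1.66. The call of CML38 was lost in the fit to all 24 libraries (edgeR adjusted p = 0.355), and that of CML23 (2.17) with the not-unique share as a covariate (edgeR adjusted p = 0.158). CML37 (2.84) lost its call in 7 alternatives, among them those without WT DMBQ replicates 1, 2 or 3 or WT mock replicates 2 or 4 (highest adjusted p 0.125). TCH4, a touch-induced cell wall enzyme, was at 494, 438, 621 and 760.5 CPM in WT DMBQ and 198, 81.1, 196 and 309.8 CPM in WT mock, without overlap between groups, and its log2 fold change of 1.57 did not pass (SE 0.42; edgeR adjusted p = 0.207).

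Of 12 tested calcium-dependent kinases and pumps, 4 rose and none fell (median log2 fold change 0.25). CPK28, a calcium-dependent kinase that limits the immune kinase BIK1, was counted at 181, 139, 150.0 and 141 CPM in WT DMBQ and 47.7, 63.9, 50.8 and 45.5 CPM in WT mock. It rose by 1.55 (SE 0.15; edgeR adjusted p = 3.85e-08), CPK32 by 1.35, the calcium pump ACA1 by 1.12 and CPK6 by 0.79, with no overlap between groups in any of the 4. CPK5, a close relative of CPK6, had -0.03, and the pumps ACA4 (-0.11) and ACA10 (0.21) did not pass either. Among 6 calmodulin-binding regulators, the calmodulin-binding protein CAMBP25 rose by 1.81, at 259, 219, 226 and 165 CPM in WT DMBQ and 74.6, 59.9, 48.2 and 65.5 CPM in WT mock. SARD1, an activator of salicylic acid synthesis, rose by 1.81 at 5.08 to 8.97 CPM in WT DMBQ and 1.61 to 2.65 CPM in WT mock, a call lost in 10 alternatives, among them each of the 8 that left out 1 library (highest adjusted p 0.644). CAMTA1, CAMTA2 and CAMTA3, calmodulin-binding factors that bind CGCG-containing elements, were between -0.11 and 0.29, and none passed.

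In the MAP kinase cascade, 4 of 12 tested members rose and none fell (median log2 fold change 0.28). MPK3, a MAP kinase of the immune and stress cascade, counted 151, 113, 148 and 117 CPM in WT DMBQ and 41.3, 48.3, 63.1 and 66.8 CPM in WT mock, and rose by 1.27 (SE 0.16; edgeR adjusted p = 5.19e-06). MKK9, a MAP kinase kinase that can act upstream of MPK3, rose by 2.17, with 10.7, 9.94, 22.6 and 10.8 CPM in the WT DMBQ libraries, where replicate 3 stood apart, and 1.99 to 4.53 CPM in WT mock. The largest rise of the list was that of AP2C1, a protein phosphatase that inactivates such kinases. AP2C1 counted 69.2, 49.2, 77.7 and 58.2 CPM in WT DMBQ and 14.9, 11.3, 10.5 and 15.2 CPM in WT mock (2.31, SE 0.20; edgeR adjusted p = 7.70e-09). Its tested neighbour on chromosome 2, MAPKKK14, rose by 1.25, a call lost in the fit to all 24 libraries and without WT DMBQ replicate 3, WT mock replicate 2 or WT mock replicate 3 (highest adjusted p 0.363). MPK4, the MAP kinase of a parallel branch, had -0.29, and the phosphatase MKP1 had 0.07, and neither passed.

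**Figure D3:**
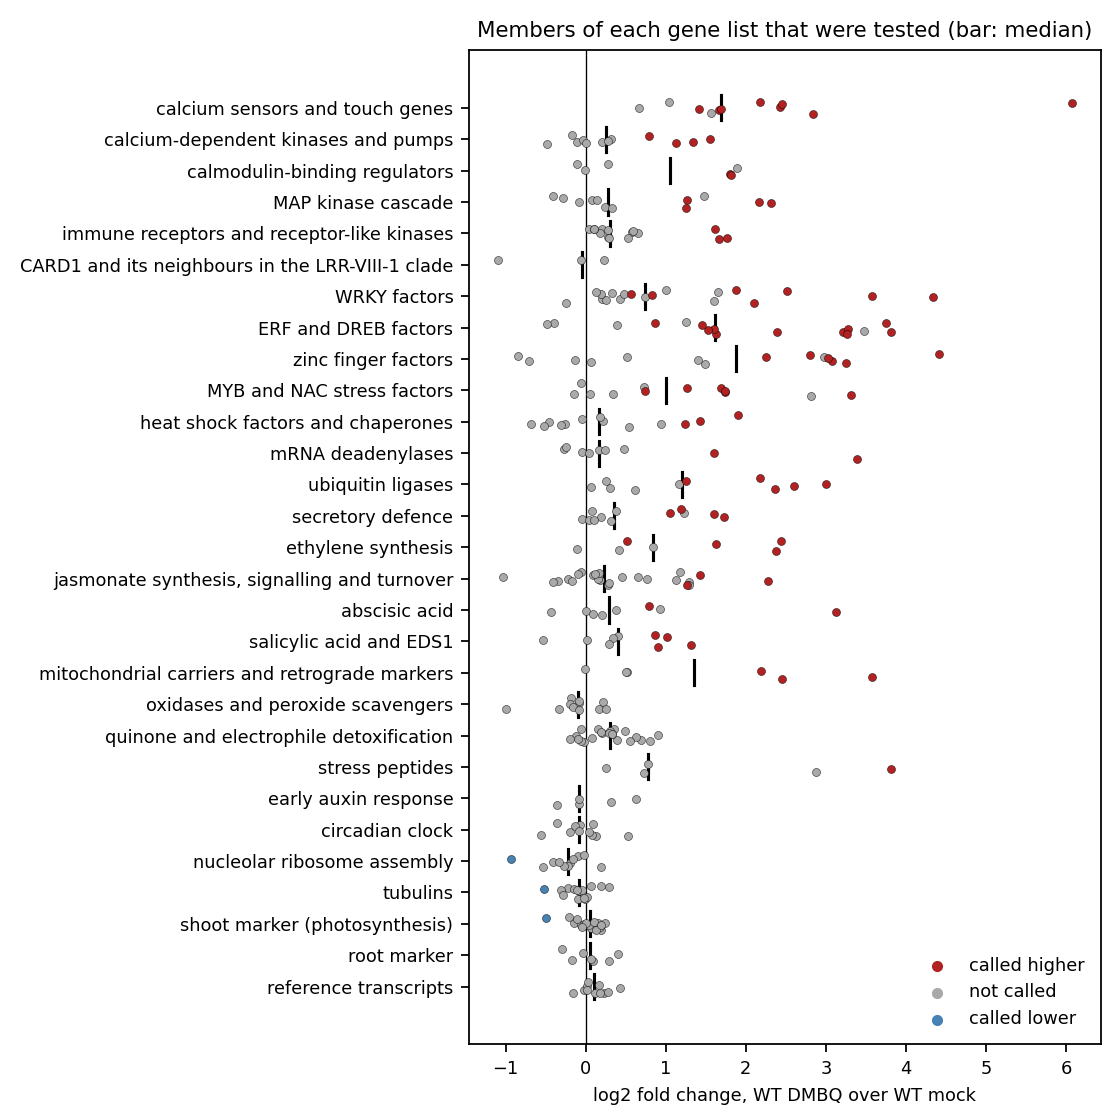
Log2 fold change, WT DMBQ over WT mock, of every tested member of each gene list, in red where called higher (82 genes), blue where called lower (3) and grey where not called, with the list's median as a bar. Lists of calcium sensors, ERF and DREB factors and zinc finger factors reach to the right, and lists of tubulins, the circadian clock and photosynthesis stay around 0.

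WRKY factors included 7 genes that rose and none that fell among 19 tested, with a median log2 fold change of 0.74. The most abundant was WRKY33, which controls camalexin synthesis and responses to necrotrophic fungi. It counted 434, 431, 524 and 442 CPM in WT DMBQ and 81.8, 71.0, 81.8 and 85.2 CPM in WT mock and rose by 2.52 (SE 0.13; edgeR adjusted p = 2.87e-13). WRKY40 and WRKY18, closely related regulators of basal defence, rose together. WRKY40 counted 37.6, 98.3, 82.6 and 46.0 CPM in WT DMBQ and 1.24, 7.30, 5.84 and 7.42 CPM in WT mock, and WRKY18 counted 155, 132, 119 and 109 CPM in WT DMBQ and 44.8, 32.0, 31.3 and 32.6 CPM in WT mock (1.88, SE 0.16; edgeR adjusted p = 5.34e-09). WRKY22, which acts downstream of the flagellin receptor, rose by 0.83. The calls of WRKY53 (2.1) and WRKY11 (0.57) were less stable. WRKY53 had 7.57, 7.96, 18.5 and 6.87 CPM in WT DMBQ and 1.90 to 2.90 CPM in WT mock, and lost its call without WT DMBQ replicate 3 and in the fit to all 24 libraries (highest adjusted p 0.268). WRKY11 lost it in 7 alternatives, among them those without WT DMBQ replicates 1 or 2 or WT mock replicates 1, 3 or 4 (highest adjusted p 0.632). WRKY25 (0.33), WRKY26 (0.13) and WRKY17 (-0.25) did not pass.

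Of 28 ERF and DREB factors listed, 16 had enough counts to be tested. Of these 16, 11 rose and none fell, with a median log2 fold change of 1.62. ERF5, an activator of chitin and jasmonate responses, counted 88.0, 90.9, 129.9 and 92.0 CPM in WT DMBQ and 11.4, 10.6, 9.93 and 11.3 CPM in WT mock. It rose by 3.21 (SE 0.18; edgeR adjusted p = 1.67e-12). ERF104, a substrate of the MAP kinase MPK6, counted 152, 200.3, 256 and 214 CPM in WT DMBQ and 17.7, 13.3, 25.6 and 30.0 CPM in WT mock, again without overlap. ERF105 counted 83.5, 70.7, 118 and 83.9 CPM in WT DMBQ and 10.4, 5.81, 8.32 and 13.2 CPM in WT mock, and ERF6 counted 95.9, 73.0, 119.6 and 79.8 CPM in WT DMBQ and 13.4, 15.4, 19.6 and 21.9 CPM in WT mock (2.39, SE 0.19; edgeR adjusted p = 1.72e-09). These 4 related factors rose by 2.39 to 3.28 on the log2 scale. ERF1A, the neighbour of ERF6 on chromosome 4 and transcribed away from it, rose by 1.61, and ERF2 by 1.45, a call lost in the fit to all 24 libraries (edgeR adjusted p = 0.188). The repressors ERF4 (1.63), ERF11 (3.82) and ERF7 (0.87) rose as well. ERF11 averaged under 1 CPM in WT mock, and ERF7 lost its call without WT DMBQ replicate 1, without WT mock replicate 3 and with the not-unique share as a covariate (highest adjusted p 0.107). DREB2A, a regulator of drought and heat genes, counted 41.8, 55.4, 56.7 and 61.8 CPM in WT DMBQ and 24.9, 12.4, 21.8 and 15.2 CPM in WT mock (1.54, SE 0.21; edgeR adjusted p = 1.86e-05). RRTF1, a redox-responsive factor, was at 22.1, 4.55, 3.29 and 3.88 CPM in WT DMBQ and 0.995, 1.82, 0 and 0 CPM in WT mock, and did not pass (3.48, SE 0.93; edgeR adjusted p = 0.100), with replicate 1 far above the other WT DMBQ libraries. DREB26 missed the threshold narrowly (1.25, SE 0.27; edgeR adjusted p = 0.0617).

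Zinc finger factors had 6 genes that rose among 14 tested and none that fell (median log2 fold change 1.88). SZF1 and CZF1, tandem CCCH proteins of salt stress and immunity, were the abundant ones. SZF1 counted 409.8, 368, 467 and 423 CPM in WT DMBQ and 72.6, 37.8, 56.5 and 73.3 CPM in WT mock (2.81, SE 0.17; edgeR adjusted p = 2.84e-10), and CZF1 counted 144, 150.0, 170.2 and 138 CPM in WT DMBQ and 25.4, 21.1, 40.2 and 39.4 CPM in WT mock (2.26, SE 0.18; edgeR adjusted p = 5.78e-09). Beside ZAT10, the C2H2 proteins ZAT12 (3.26), which responds to many stresses, ZAT6 (3.07) and AZF3 (3.03) rose. ZAT12 varied in WT DMBQ, at 25.2, 37.5, 49.7 and 31.7 CPM, and was even in WT mock, at 3.48, 3.65, 3.65 and 4.20 CPM. AZF3, at 5.38 to 9.94 CPM in WT DMBQ and 0.166 to 1.90 CPM in WT mock, lost its call in the fit to all 24 libraries and with the covariate (highest adjusted p 0.176). TZF1 (0.07), TZF9 (0.52) and AT2G28200 (-0.14) did not pass.

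Of 12 tested MYB and NAC stress factors, 6 rose and none fell, with a median log2 fold change of 1.00 that was 0.62 without WT DMBQ replicate 4. MYB15, an activator of lignin synthesis in immunity, was uneven, at 20.2, 5.11, 20.1 and 8.36 CPM in WT DMBQ and 0.746, 1.16, 1.90 and 1.29 CPM in WT mock (3.31, SE 0.49; edgeR adjusted p = 5.63e-05). MYB77, a regulator of auxin responses in lateral roots, counted 115, 92.6, 172 and 124 CPM in WT DMBQ and 37.8, 32.5, 43.1 and 36.8 CPM in WT mock (1.74, SE 0.17; edgeR adjusted p = 6.75e-08). The membrane-tethered factor NAC062 rose by 1.74, ATAF2 by 1.26 and MYB51, which controls indole glucosinolates, by 1.69, the last with a call lost in the fit to all 24 libraries (edgeR adjusted p = 0.0926). MYB44 rose by 0.75, a call lost in the fit to all 24 libraries and with the covariate (highest adjusted p 0.405). NAC017, a sensor of mitochondrial dysfunction, had -0.14 and did not pass. Among 13 heat shock factors and chaperones, the 3 genes that rose were factors, HSFB2A (1.90), HSF A4A (1.43) and HSFA8 (1.24), and the list's median was 0.17. HSFA8 lost its call without WT DMBQ replicates 3 or 4 or WT mock replicates 1 or 3 (highest adjusted p 0.0752), HSF A4A in the fit to all 24 libraries (edgeR adjusted p = 0.113) and HSFB2A with the covariate (edgeR adjusted p = 0.116). The chaperones HSP70 (-0.26) and HSP90-1 (-0.30) did not pass.

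Genes of mRNA and protein turnover rose beside the factors. CAF1a, a subunit of the CCR4-NOT complex that shortens poly(A) tails, counted 201, 203, 247 and 181 CPM in WT DMBQ and 23.4, 17.1, 19.9 and 18.7 CPM in WT mock. Its log2 fold change of 3.40 (SE 0.16; edgeR adjusted p = 2.83e-14) came with no overlap and little spread in either group. Its relative CAF1b rose by 1.60, a call lost without WT DMBQ replicate 1, in the fit to all 24 libraries and with the covariate (highest adjusted p 0.315). They were the 2 called genes of 9 tested deadenylase genes (median log2 fold change 0.17), and AT5G10960, the most abundant relative, was at 135, 126, 127 and 146 CPM in WT DMBQ and 119, 121, 143 and 137 CPM in WT mock (0.04). Of 10 tested ubiquitin ligases, 5 rose and none fell (median log2 fold change 1.21). PUB22 and PUB23 are U-box ligases that dampen immune signalling. PUB22 counted 61.7, 47.4, 48.5 and 52.0 CPM in WT DMBQ and 8.46, 10.5, 15.2 and 11.6 CPM in WT mock (2.18, SE 0.21; edgeR adjusted p = 3.85e-08), and PUB23 counted 52.7, 62.8, 74.4 and 72.9 CPM in WT DMBQ and 12.4, 3.32, 8.32 and 9.68 CPM in WT mock (3.00, SE 0.27; edgeR adjusted p = 4.93e-07). The RING ligases ATL31 (2.60) and ATL2 (2.36) and the U-box ligase CMPG1 (1.26) rose too. PUB13 had 0.07 and did not pass.

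Among hormone genes, some of those for the rate-limiting step of ethylene synthesis rose. Of 12 ethylene synthesis genes listed, 7 had enough counts to be tested, and the lowest log2 fold change among these was -0.11. Of 7 tested ethylene synthesis genes, 4 rose and none fell, with a median log2 fold change of 0.84 that was 0.50 without WT DMBQ replicate 4 and 1.31 without WT mock replicate 4. Of the 4, ACS6, ACS7 and ACS11 encode ACC synthases. ACS7 counted 70.6, 90.4, 86.3 and 125 CPM in WT DMBQ and 24.9, 22.6, 38.0 and 35.5 CPM in WT mock (1.62, SE 0.19; edgeR adjusted p = 4.20e-06). ACS6, a target of MPK3 and MPK6, counted 40.1, 32.7, 23.0 and 20.3 CPM in WT DMBQ and 7.46, 5.14, 6.28 and 1.94 CPM in WT mock (2.44, SE 0.31; edgeR adjusted p = 7.50e-06). ACS11 rose by 2.38, with WT mock replicate 4 above the other WT mock libraries (7.10 CPM against 2.24 to 2.49 CPM). The ACC oxidase ACO4 rose by 0.51, a call lost in 6 alternatives, among them those without WT DMBQ replicates 2 or 4 or WT mock replicates 1 or 2 (highest adjusted p 0.485).

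Of 24 tested jasmonate genes, 3 rose and none fell (median log2 fold change 0.23). JAZ1, a repressor of jasmonate signalling whose transcript the pathway itself induces, counted 167, 111, 108 and 124 CPM in WT DMBQ and 23.6, 29.9, 28.2 and 23.2 CPM in WT mock. It rose by 2.27 (SE 0.17; edgeR adjusted p = 2.91e-10). MYC2, the central activator of that pathway, counted 90.0, 89.2, 81.0 and 80.1 CPM in WT DMBQ and 26.4, 35.5, 31.7 and 49.4 CPM in WT mock (1.26, SE 0.17; edgeR adjusted p = 1.55e-05). OPCL1, an enzyme of the last steps of jasmonate synthesis, rose by 1.43, whereas LOX2 (-0.17) and AOC2 (0.17), enzymes of earlier steps, and MYC3 (-0.10) did not pass. For abscisic acid, 2 of 8 tested genes rose (median log2 fold change 0.29), and the larger was CYP707A3, the hydroxylase that breaks the hormone down. CYP707A3 counted 41.2, 42.3, 62.1 and 53.2 CPM in WT DMBQ and 4.73, 7.63, 5.40 and 4.20 CPM in WT mock (3.13, SE 0.24; edgeR adjusted p = 5.45e-10). RD29A, a marker of drought and cold, rose by 0.79, a call lost in 5 alternatives, among them those without WT DMBQ replicate 1 or WT mock replicates 1 or 3 (highest adjusted p 0.245). The signalling genes ABI1 (0.21), HAB1 (0.00) and ABF3 (0.10) did not pass.

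Of 9 tested genes of salicylic acid and EDS1 signalling, 4 rose and none fell, with a median log2 fold change of 0.40 that was 0.84 without WT mock replicate 2. NUDT7, a hydrolase that restrains EDS1-dependent immunity, counted 99.8, 87.5, 126 and 105 CPM in WT DMBQ and 40.3, 36.0, 44.8 and 47.4 CPM in WT mock (1.31, SE 0.15; edgeR adjusted p = 1.44e-06). SAG101 (0.91) and PAD4 (1.02), the partners of EDS1, rose, while EDS1 itself was at 10.4, 32.7, 27.1 and 31.4 CPM in WT DMBQ and 21.1, 22.4, 21.8 and 13.9 CPM in WT mock and did not pass (0.34). The salicylic acid receptor NPR3 rose by 0.87. Among these, PAD4 lost its call without WT DMBQ replicate 3 or WT mock replicates 2 or 4 and in 2 other fits (highest adjusted p 0.892), NPR3 in 7 alternatives, among them those without WT DMBQ replicates 1 or 2 or WT mock replicates 1, 2 or 4 (highest adjusted p 0.605), and SAG101 with the covariate (edgeR adjusted p = 0.0639). NPR1 had 0.02 and NPR4 had -0.53, and neither passed.

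Secretion genes of defence had 4 members that rose among 12 tested (median log2 fold change 0.35), 2 syntaxins and 2 exocyst subunits. SYP122 counted 119, 104, 182 and 127 CPM in WT DMBQ and 42.8, 36.8, 41.3 and 54.2 CPM in WT mock (1.61, SE 0.17; edgeR adjusted p = 3.59e-07), and SYP121, the syntaxin of penetration resistance, rose by 1.19. EXO70B2, a target of PUB22, counted 35.3, 33.8, 35.8 and 27.5 CPM in WT DMBQ and 19.4, 7.80, 5.70 and 7.75 CPM in WT mock, with WT mock replicate 1 well above the other WT mock libraries (1.73, SE 0.30; edgeR adjusted p = 9.07e-04). EXO70B1 rose by 1.06. PEN2 (0.11) and PEN3 (0.32), the enzyme and the transporter of the same penetration resistance, and MLO2 (0.08) did not pass.

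Of 6 tested mitochondrial carriers and retrograde markers, 3 rose, and none fell (median log2 fold change 1.36, or 0.51 to 0.52 in 4 alternatives, of which 3 changed the genes tested). DIC2, a dicarboxylate carrier of the inner membrane, counted 374, 353, 454 and 388 CPM in WT DMBQ and 36.8, 29.5, 27.6 and 38.7 CPM in WT mock. It rose by 3.58 on the log2 scale (SE 0.15; edgeR adjusted p = 5.80e-15, the smallest of all genes tested). Its relative DIC1 counted 74.0, 52.8, 55.9 and 51.1 CPM in WT DMBQ and 15.4, 16.8, 9.05 and 9.68 CPM in WT mock (2.19, SE 0.22; edgeR adjusted p = 7.40e-08), and OM66, an outer membrane ATPase, rose by 2.46. AOX1A, the alternative oxidase that marks mitochondrial retrograde signalling, was at 14.6, 22.7, 19.7 and 14.6 CPM in WT DMBQ and 10.2, 6.47, 19.1 and 13.9 CPM in WT mock and did not pass (0.52, SE 0.30; edgeR adjusted p = 0.583). UCP1 and UCP2 did not pass (-0.01 and 0.51).

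For genes that handle quinones, electrophiles and reactive oxygen, no call was made, and lists this short are read against the 2.12% of all genes tested that were called. None of 22 tested genes of quinone and electrophile detoxification was called by edgeR, with 2 at an unadjusted p under 0.05, 1 called by DESeq2 and none by limma voom. Their log2 fold changes ran from -0.20 to 0.91 with a median of 0.30, and 16 of the 22 were above 0. Over all 16454 genes tested, 8136 were above 0. GSTU19, an abundant glutathione transferase, was at 256, 320.2, 336 and 345 CPM in WT DMBQ and 205, 240.4, 349 and 222 CPM in WT mock (0.30, SE 0.15; edgeR adjusted p = 0.498). OPR1, an oxophytodienoate reductase relative, varied within both groups, at 106, 75.6, 217 and 167 CPM in WT DMBQ and 48.0, 43.5, 278 and 135 CPM in WT mock, and shares its locus with a gene on the same strand. None of 11 tested oxidases and peroxide scavengers was called by edgeR, DESeq2 or limma voom, and 1 had an unadjusted edgeR p under 0.05 (median log2 fold change -0.09). CAT2, the main leaf catalase, was at 297, 291, 283 and 252 CPM in WT DMBQ and 315, 309, 313 and 314 CPM in WT mock (-0.16), and CAT3 (-0.18) and FSD1 (-0.08) did not pass either. Of 5 tested genes listed as stress peptides, AT3G10930 rose, at 7.85, 7.67, 19.3 and 11.1 CPM in WT DMBQ and 1.24, 0.664, 0.438 and 0.968 CPM in WT mock, and RALF23 (0.73), RALFL33 (0.78) and PSK4 (0.25) did not pass.

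Of the 10 genes that gained the most CPM, 5 are described above (DIC2, SZF1, WRKY33, CML24 and MYB44), and the other 5 were already abundant in WT mock and rose by small folds. ERD15, a dehydration-induced protein, counted 1720.3, 1877, 1820.2 and 1979 CPM in WT DMBQ and 1276, 1036, 1274 and 1476 CPM in WT mock (0.55, SE 0.12; edgeR adjusted p = 0.00802), and its call was lost without WT mock replicate 2, in the fit to all 24 libraries and with the covariate (highest adjusted p 0.0753). AT3G57930, described as a rho GTPase-activating gacO-like protein, counted 1172, 1244, 1439 and 1647 CPM in WT DMBQ and 833, 813, 832 and 1046 CPM in WT mock (0.64, SE 0.13; edgeR adjusted p = 0.00279). The elongation factor subunit eEF-1Bb1 (0.46) and AT3G53740, a ribosomal protein of the L36e family (0.53), rose slightly. Ribosomal proteins such as AT3G53740 have near-identical copies that can share reads. The calls of AT3G53740 and eEF-1Bb1 were lost in alternatives, that of eEF-1Bb1 in 6. These were the fit to all 24 libraries (edgeR adjusted p = 0.142, the highest) and the fit with the covariate. The others left out WT DMBQ replicates 1 or 3 or WT mock replicates 2 or 3. The call of AT3G53740 was lost in the fit to all 24 libraries (edgeR adjusted p = 0.120) and, at a lower p, without WT DMBQ replicate 1. The plastid code ATCG01180, which the reference does not annotate under that name, was at 713, 905, 645 and 753 CPM in WT DMBQ and 396, 516, 505 and 392 CPM in WT mock (0.74), with its call lost in the fit to all 24 libraries and with the covariate (highest adjusted p 0.471).

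The genes that fell did so by small amounts, and no pathway list held more than 1 of them. AT2G18840, a membrane protein of the Yip1 family, had the largest fall among genes above 5 CPM. It counted 5.33, 5.68, 4.52 and 8.36 CPM in WT DMBQ and 19.6, 20.1, 15.04 and 13.2 CPM in WT mock (-1.50, SE 0.30; edgeR adjusted p = 0.00302), and its call was lost in the fit to all 24 libraries and with the covariate (highest adjusted p 0.129). AT3G06680, a ribosomal protein of the L29e family, counted 179.7, 135, 162 and 132 CPM in WT DMBQ and 243, 401, 285 and 223 CPM in WT mock (-0.92, SE 0.16; edgeR adjusted p = 0.00130). Its nearby copy AT3G06700 fell by less (-0.47), and reads of such copies may be split between them. AT4G26600, a methyltransferase of the nucleolar list, fell by 0.93 on the log2 scale (SE 0.18; edgeR adjusted p = 0.00222), at 35.6, 23.6, 21.8 and 25.4 CPM in WT DMBQ and 47.5, 55.2, 50.8 and 50.3 CPM in WT mock. It was the 1 called gene of 11 nucleolar ribosome assembly genes, whose median was -0.22. Of the 11, 10 had a log2 fold change below 0, while 8136 of all 16454 genes tested were above 0. NOP56, the most abundant of the 11, had -0.40 (edgeR adjusted p = 0.155). Its WT mock replicate 4, at 897 CPM, lay below the other WT mock libraries.

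Further genes that fell were RHA2A (-0.96), a RING ligase of abscisic acid signalling, the MATE transporter AT4G29140 (-0.95), the dioxygenase AT5G39890 (-0.92), IPT3, an enzyme of cytokinin synthesis (-0.86), the TIR-NBS-LRR gene AT4G19530 (-0.85), the kelch repeat gene AT1G15670 (-0.80) and the zinc finger gene AT2G34200 (-0.75). The abundant genes PRK, CLPP3 and GLDP1 fell by less. PRK, phosphoribulokinase of the Calvin cycle, counted 383, 377, 399 and 455 CPM in WT DMBQ and 601, 582, 562 and 529 CPM in WT mock (-0.50, SE 0.12; edgeR adjusted p = 0.0152), the plastid protease subunit CLPP3 had -0.47, and GLDP1, a subunit of the photorespiratory glycine decarboxylase of mitochondria, had -0.43. PRK was the 1 called gene of 18 shoot markers, whose median was 0.06. The beta-tubulin TUB3 was the 1 called gene of 15 tubulins (median log2 fold change -0.08), at 237, 239, 224 and 228 CPM in WT DMBQ and 362, 352, 358 and 259 CPM in WT mock (-0.52, SE 0.13; edgeR adjusted p = 0.0211). Its near-identical copy TUB2 had -0.28 and did not pass, and the pair may share reads. Every gene named here as lower lost its call in at least 1 alternative. TUB3 lost it in 8, without any 1 of WT DMBQ replicates 1 to 4 or WT mock replicates 1 to 3 and with the covariate (highest adjusted p 0.101), and PRK lost it in 6, among them those without WT DMBQ replicates 1, 2 or 3 or WT mock replicate 1 (highest adjusted p 0.376).

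**Figure D4:**
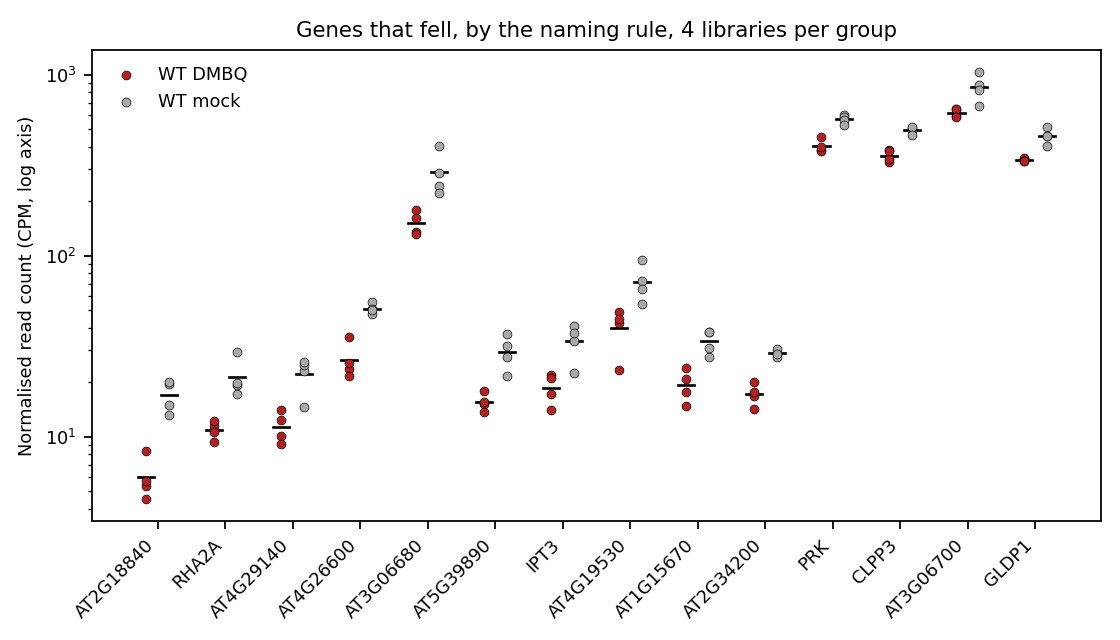
Normalised read counts (CPM, log axis) of the genes that fell, chosen by fold change or by difference in CPM, 4 WT DMBQ libraries (red) and 4 WT mock libraries (grey) per gene, with the group mean as a bar. The groups are separate in each gene but lie close together, and AT2G18840 shows the widest gap.

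Short lists of auxin, clock, root and reference genes held no call, which at 2.12% of all genes tested says little about them. None of 11 clock genes (median log2 fold change -0.08), none of 5 tested early auxin genes (-0.08), none of 7 tested root markers (0.06) and none of 11 reference transcripts (0.11) passed in edgeR, DESeq2 or limma voom. At an unadjusted edgeR p under 0.05 stood 1 of the root markers, 2 of the reference transcripts and none of the others. The clock genes PRR7 (0.04), ELF3 (0.13) and TOC1 (-0.08) had standard errors of 0.15, 0.13 and 0.20. The auxin-induced repressor IAA2 had 0.31 and the reference transcript UBQ10 0.23. Summed over the root markers, the level was 1402 to 1961 CPM in WT DMBQ and 1384 to 1482 CPM in WT mock, and over the shoot markers 25916 to 28932 CPM in WT DMBQ and 23234 to 30626 CPM in WT mock, so the ranges of the groups overlapped in both. Over all 30 lists, 334 of 430 members were tested, 82 rose and 3 fell.

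The annotated structure of the genes that rose was set beside that of the other genes. A single exon was annotated for 41.1% of the 314 annotated genes that rose, for 12.1% of the 33 that fell and for 13.4% of the 16366 tested. The share was 47.5% among those that rose at least 2-fold and 25.8% among those that rose by less. At least 4 exons were annotated for 27.7% of the genes that rose, 60.6% of those that fell and 62.3% of those tested. Median exonic length differed less, at 1689 bases for genes that rose, 1834 for those that fell and 1843 for all tested. Of the strongest genes, AT3G29000, AT3G02840, ZAT10, AT4G29780, DIC2 and CAF1a are annotated with 1 exon. These shares are descriptions, and genes of 1 family share their structure.

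**Figure D5:**
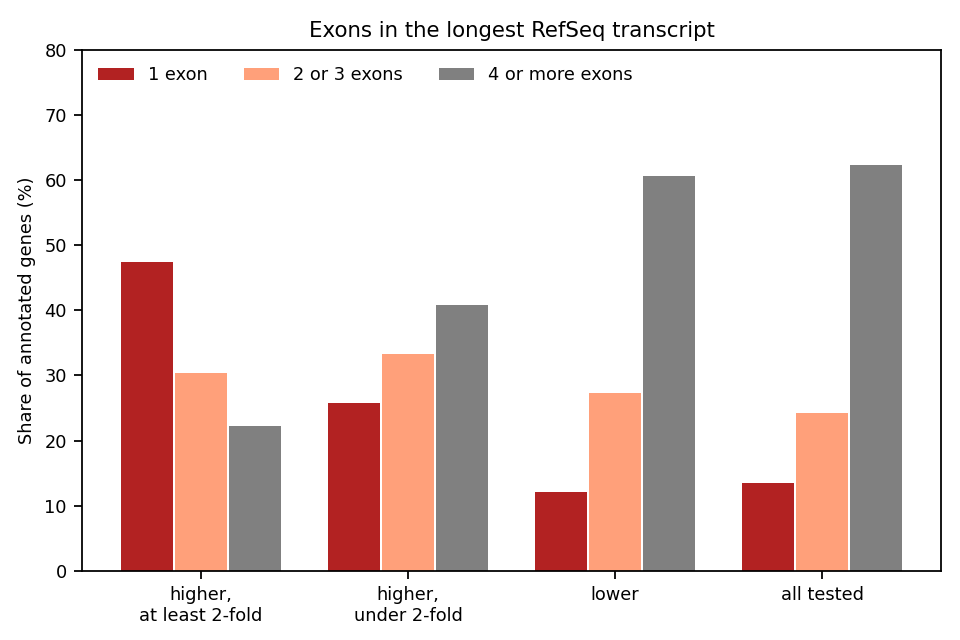
Share of annotated genes (%) with 1 exon, 2 or 3 exons and 4 or more exons in the longest RefSeq transcript, for genes called higher at least 2-fold, called higher under 2-fold, called lower and all tested. Single-exon genes make up 47.5% of the first group and 13.4% of all tested.

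Genes that rose were scattered over the genome. Of 10407 pairs of neighbouring genes with both members tested, 5 pairs rose together (0.0480%) and none fell together. The 5 pairs were PP2-B13 and PP2-B14, AT1G69890 and AT1G69900, AP2C1 and MAPKKK14, ERF6 and ERF1A, and the TIR-NBS-LRR genes AT5G41740 and AT5G41750. In 4 of the 5 pairs both genes lie on the same strand. Another annotated gene overlapped on the other strand in 22.2% of the genes that rose, 18.2% of those that fell and 28.4% of those tested, and the reads of such overlaps cannot be told apart here. Among the genes described above this applies to AT3G02840, WRKY33, WRKY40, CML24, CML12, MPK3, SOBIR1, MYC2, ERF105, PUB23, DREB2A, ACA1 and PRK.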

How the data were processed

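RNA was sequenced from 8 libraries, 4 of WT DMBQ and 4 of WT mock, grouped by their titles. Extraction and library preparation followed Townsley et al., per the labels' protocols, and an Illumina HiSeq4000 was used, per the series description. Per the submitters' processing notes, which give no roles, the tools were HTSeq 0.6.1, TopHat2 2.1.1, TopHat, bcl2fastq 2.17 and CASAVA, with the build TAIR10. How HTSeq treated strand and overlapping genes, and with which annotation release, is not given in the sources used here. The authors deposited a whole-number count per gene and library without normalization. The deposited columns also hold 1 line of percentages that names no gene, so their unit was recorded as an estimated count, although gene values are raw whole numbers that needed no rounding. The 9 lines without a gene code, HTSeq's tallies among them, were left out, which removed 23.5% to 44.3% of all records per library.

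Of the 33602 gene rows, 32835 matched RefSeq TAIR10.1 by gene code, from which names, products, exons, coordinates and upstream sequence were taken. Genes passed filterByExpr (minimum count 10, minimum total 15). Library sizes were scaled by TMM. edgeR 4.0.16's quasi-likelihood test (robust, in R 4.3.3) was fitted to the 8 libraries with a term for the group alone. Tests were two-sided, and Benjamini-Hochberg adjusted p-values, taken across every tested gene, had a threshold of 0.05. Every adjusted p comes from it unless another fit is named. Levels are CPM, counts scaled by TMM to a library total of 1e6. SE is an approximate standard error of the log2 fold change. It was taken as the absolute log2 fold change divided by the square root of edgeR's quasi-likelihood F statistic. The script was tested on simulated data. The chi-square per degree of freedom between replicates ran from 4.74 to 11.3, so none was a repeat of another. The range of total counts limits precision for low genes, and p-values between groups cover the spread between libraries only.

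Alternatives were other scalings, other filters, DESeq2 1.42.0, limma 3.58.1 voom, a replicate block, all 24 libraries, the not-unique share as a covariate and leaving out each library. Named genes were CARD1, the called genes with a mean of 5 CPM and separate groups that had the 15 largest rises and 10 largest falls, those with the 10 largest gains and 5 largest losses in CPM, called members of the lists, and up to 3 other members per list with the highest mean. Genes and lists were chosen with earlier results of these data known. 1 gene that the rule names is not reported here. Observations outside this rule are marked.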

Additional observations from a re-analysis of the deposited data

Results flagged for a closer look

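In groups of 4 libraries, the gap of the highest or lowest library to its nearest neighbour, divided by the range, was compared with Dixon's 95% critical value. Of 214 groups examined, 18 passed, and chance passes about 1 in 20. WT DMBQ replicate 3 was the separate library in 5 of the 18. It was high for MKK9 (22.6 CPM against 9.94 to 10.8 CPM in the other WT DMBQ libraries, ratio 0.936), WRKY53 (18.5 CPM against 6.87 to 7.96 CPM, 0.907), ERF5 (129.9 CPM against 88.0 to 92.0 CPM, 0.905) and WRKY33 (524 CPM against 431 to 442 CPM, 0.884), and low for SAG101 (58.0 CPM against 67.3 to 68.7 CPM, 0.873). The library also held the highest value of 133 of the 316 genes that rose. WT DMBQ replicate 1 was low for CML12 (142.9 CPM against 211 to 223 CPM, 0.85). WT DMBQ replicate 2 was low for the elongation factor subunit eEF-1Bb1 (952 CPM against 1058 to 1078 CPM, 0.842) and high in the share of alignments not unique (41.8% against 29.7% to 31.5%, 0.846).

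Among WT mock libraries, replicate 1 was high for EXO70B2 (19.4 CPM against 5.70 to 7.80 CPM, 0.847), WRKY18 (44.8 CPM against 31.3 to 32.6 CPM, 0.901) and ERF11 (1.24 CPM against 0.146 to 0.332 CPM, 0.831). Replicate 2 was high for AT4G29780 (14.6 CPM against 8.03 to 8.71 CPM, 0.896) and SARD1 (2.65 CPM against 1.61 to 1.75 CPM, 0.867), and low for EXO70B1 (39.0 CPM against 50.0 to 51.5 CPM, 0.883). Replicate 4 was high for ACS11 (7.10 CPM against 2.24 to 2.49 CPM, 0.949), AT3G57930 (1046 CPM against 813 to 833 CPM, 0.917) and ERF7 (30.3 CPM against 19.6 to 21.4 CPM, 0.83), and low for TUB3 (259 CPM against 352 to 362 CPM, 0.902). In none of these genes did the separate library reach the other group. The causes were not tested.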

How the results depend on the processing

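All 105 named genes with a call kept their direction in every alternative that gave a value, and 63 of the 90 that rose and none of the 15 that fell also kept their call. Of 1907 such values, 197 missed the threshold. Against 349 genes called (316 higher, 33 lower), the replicate block gave 532 (442 higher, 90 lower), the fit to all 24 libraries 182 (180 higher, 2 lower) and the not-unique share as a covariate 227 (220 higher, 7 lower). No filter on low counts gave 57 genes lower. Leaving out 1 library at a time gave 278 to 343 genes in all, 263 to 312 higher and 11 to 38 lower. Scaling by DESeq2's size factors or total counts, leaving out organelle genes, a CPM filter, DESeq2 and limma voom kept all 3 counts within 1.5 times. The difference in the not-unique share ran from 5.91 to 10.1 points without 1 library (exact permutation p = 0.0286 to 0.0571) and was 8.91 with gene counts plus not-unique records as the denominator. Same-numbered libraries of the groups were weakly and positively correlated, at 0.0908 to 0.119 after removal of group means. Of the 4 numbers, 3 correlated best with their own number. The labels state no pairing, so the main fit used no block, and whether equal numbers mark pairs was not tested. Of 522 list medians under alternatives, 22 moved by more than the spread between replicates. With 2453832 to 6845450 gene counts per library, changes of transcripts near 1 CPM rest on few reads.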

Other observations

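Further families stood out by the wording of their RefSeq products. They were picked after the values were seen, so their counts are descriptions without a test, beside the 1.92% of all tested genes that rose. Of 67 tested genes described with a TIR or TIR-NBS domain, which are mostly intracellular immune receptors, 6 rose and 1 fell, although the median log2 fold change of the family was 0.07. AT1G72900 averaged 47.8 CPM in WT DMBQ and 9.75 CPM in WT mock (log2 fold change 2.28), and AT5G41750 averaged 19.0 CPM in WT DMBQ and 3.73 CPM in WT mock (2.34). Of 55 tested genes described as EF-hand or calmodulin proteins, 15 rose and none fell. Beyond those of the calcium list, AT4G27280 averaged 92.8 CPM in WT DMBQ and 10.2 CPM in WT mock (3.20), and the calmodulins CAM5 (0.52), CAM6 (0.64) and CAM9 (0.84) rose by less.

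Cell wall and transport families moved as well. Of 21 tested xyloglucan endotransglucosylase/hydrolases, enzymes that cut and rejoin wall xyloglucan, 4 rose (XTH18 2.03, XTR6 1.93, XTH15 0.99 and XTH7 0.62), as did 2 of 5 genes described as xylosyltransferases, which build xyloglucan (XT1 1.01 and XXT5 0.75). Of 6 tested purine permeases, 3 rose. PUP14, which takes up cytokinin, averaged 173.9 CPM in WT DMBQ and 58.2 CPM in WT mock (1.58). Of 14 tested phloem protein 2 genes, 4 rose, and of 23 tested nudix hydrolases, 3 rose, NUDT21 (3.18) and NUDT4 (2.81) with NUDT7. Among larger families, 4 of 339 genes whose description names a ribosomal protein (1.18%) rose and 2 fell. The elongation factor subunit eEF-1Bb1 is among these 4. Of 115 cytochromes P450, 2 (1.74%) rose, and both shares were close to that of all tested genes. Of 14 tested light-harvesting genes of the chloroplast, 2 rose, LHB1B1 (0.68) and LHCB2.3 (0.51), and none fell. LHB1B1 averaged 249.9 CPM in WT DMBQ and 156 CPM in WT mock, and both calls were lost in the fit to all 24 libraries and with the not-unique share as a covariate. LHCB2.3 also lost its call without any 1 of WT DMBQ replicates 1 to 3 or WT mock replicates 1 to 4 (highest edgeR adjusted p 0.482). Of 179 pentatricopeptide repeat genes, which act in organelles, none rose and 1 fell.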
